A study of Mus musculus with 9 samples.

Results

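The hypoxia-inducible and glycolysis genes described here are 34 genes chosen by name, 17 of glucose uptake, glycolysis and pyruvate use and 17 of the hypoxia-inducible factor (HIF) pathway, of 48795 genes in the deposited table. All 34 were found and all passed the filter on low values, a mean normalised count of 10 over the 9 libraries. The libraries are total RNA from mouse colon organoids, epithelial structures grown from crypts in Matrigel with Wnt-3A, EGF, Noggin and R-spondin-1 (WENR medium), which keeps stem cells enriched. The study's recipe for this medium also holds nicotinamide, SB202190 and an ALK5 inhibitor. Organoids were wild type (WT) or lacked the aryl hydrocarbon receptor (AHR KO), the deletion being driven in epithelial cells by Villin-Cre on floxed Ahr alleles, in C57BL/6 mice. They received the vehicle DMSO or 5 nM FICZ, a high-affinity AHR ligand, for 4 hours. There were 2 WT DMSO libraries (replicates 2 and 3), 3 WT FICZ libraries (1, 2 and 3), 2 AHR KO DMSO libraries (1 and 3) and 2 AHR KO FICZ libraries (1 and 3). The age of the mice is not in the sources used here, and all values are levels of RNA, not of protein or metabolites.

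HIF is a pair of proteins, an alpha subunit and the common partner ARNT, which is also the partner of the ligand-bound AHR. In normal oxygen, prolyl hydroxylases (Egln genes) mark the alpha subunit for destruction by the VHL ligase, so HIF activity is set mainly at the level of protein. In low oxygen HIF raises genes of glucose uptake, glycolysis, mitophagy and blood vessel growth, and in the colon, where oxygen falls steeply towards the lumen, HIF is known for its part in the epithelial barrier.

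The normalised counts summed to 23177100 to 25033800 per library, and the 34 members took 1.68% to 1.99% of them. Libraries of one group were not copies of each other, with an SD over genes of their log2 difference of 0.34 to 0.44. The whole-gene Ahr value did not follow the labels, at 1346 to 1443 in the libraries labelled AHR KO and 783 to 858 in those labelled WT, and a count over the whole gene does not show whether one exon was removed. Cyp1b1, a direct AHR target, separated the labels: 25.4 and 34.5 in AHR KO DMSO, 137 and 222 in AHR KO FICZ, 1078 and 1632 in WT DMSO and 8898 to 10600 in WT FICZ. FICZ still raised 4 of 6 AHR reference genes in the libraries labelled AHR KO (Cyp1a1, Cyp1b1, Ahrr and Slc2a6), against all 6 in WT, and 4 of the 6 were called for a larger rise in WT. Cyp1a1 had 100.3 and 139 in AHR KO FICZ, with 0 to 5.84 in the 4 DMSO libraries and 6987 to 7958 in WT FICZ. Genotype is used below as labelled, and the part of this remaining response in the members' changes after FICZ in AHR KO was not tested. The 9 epithelial markers summed to 309402 to 335569 normalised counts in every group, against at most 60.9 for 7 endothelial markers and 726 for 7 immune markers, and the pan-leukocyte gene Ptprc was listed at 0 throughout. The 10 fibroblast markers summed to 59.4 to 88.8 in WT DMSO and 87.5 to 112 in WT FICZ, above the 21.8 to 38.4 in AHR KO DMSO and 42.0 to 42.8 in AHR KO FICZ. That sum lay mostly in Pdgfrb (15.3 to 34.5 in AHR KO and 55.7 to 110.1 in WT), Lum was listed at 0 throughout, and no other of the 10 passed 6.09. This fibroblast sum moved with genotype, and in AHR KO both FICZ libraries lay above both DMSO libraries. The endothelial sum was 32.2 to 56.6 in WT DMSO and 22.2 to 29.5 in AHR KO DMSO. Under FICZ it overlapped between genotypes (27.5 to 60.9 in WT and 26.6 to 28.9 in AHR KO). The part of either sum in the genotype and FICZ differences was not tested. The immune sum lay mostly in Cd68 (475 to 712), and its highest value was in an AHR KO FICZ library; its part in the results was not tested. In these bulk samples, fewer cells of a type and less RNA per cell cannot be told apart.

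HIF with ARNT binds DNA at the core ACGTG or GCGTG, and AHR with ARNT at GCGTG. Promoter windows of 300 bases, mostly upstream of a RefSeq start (build GRCm38.p6), were found for 31 of the 34 members, 48 windows in all. ACGTG, read on both strands, was in 25 of the 48 windows (52.1%, against 19.6% of 32851 windows of all genes) and GCGTG in 26 (54.2%, against 32.4%). Either core was in 37 (77.1%, against 43.8%). Some windows of the same gene overlap, such as those of Aldoa, Eno1 and Pfkm, so the same core can be counted again. Many members were chosen by name as HIF targets, so these higher shares are not an independent finding. The cores share the letters CGTG. A stretch such as CACGTG reads the same on both strands, so its ACGTG counts on each. A match is a description of the sequence, not evidence of binding. The windows below belong to 4 of the 6 members called after FICZ in WT organoids, 3 that fell and 1 that rose. They are written 5′ to 3′ on the gene's strand with each core in capitals (CACGT and CACGC are the cores on the opposite strand).
Hif1a, chr12:73907617-73907916, plus strand: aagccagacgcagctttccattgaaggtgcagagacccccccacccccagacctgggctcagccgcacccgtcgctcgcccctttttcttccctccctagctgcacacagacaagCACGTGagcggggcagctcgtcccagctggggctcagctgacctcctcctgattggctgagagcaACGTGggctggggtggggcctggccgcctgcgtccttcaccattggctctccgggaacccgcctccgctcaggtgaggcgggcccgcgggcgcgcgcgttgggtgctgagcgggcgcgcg
Bnip3, chr7:138909457-138909756, minus strand: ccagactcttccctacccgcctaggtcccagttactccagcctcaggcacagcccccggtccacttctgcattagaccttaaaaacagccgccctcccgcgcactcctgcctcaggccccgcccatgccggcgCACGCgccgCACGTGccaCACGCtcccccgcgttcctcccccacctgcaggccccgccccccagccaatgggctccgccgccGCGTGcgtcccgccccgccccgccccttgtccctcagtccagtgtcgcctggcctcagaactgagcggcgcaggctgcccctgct
Pdk1, chr2:71872974-71873273, plus strand: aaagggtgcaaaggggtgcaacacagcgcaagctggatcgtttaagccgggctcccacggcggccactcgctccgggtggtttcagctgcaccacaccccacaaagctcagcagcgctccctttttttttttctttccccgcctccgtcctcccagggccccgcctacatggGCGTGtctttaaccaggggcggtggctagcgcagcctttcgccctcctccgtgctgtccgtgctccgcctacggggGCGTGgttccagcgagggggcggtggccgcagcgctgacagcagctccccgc
Ddit4, chr10:59951721-59952020, minus strand: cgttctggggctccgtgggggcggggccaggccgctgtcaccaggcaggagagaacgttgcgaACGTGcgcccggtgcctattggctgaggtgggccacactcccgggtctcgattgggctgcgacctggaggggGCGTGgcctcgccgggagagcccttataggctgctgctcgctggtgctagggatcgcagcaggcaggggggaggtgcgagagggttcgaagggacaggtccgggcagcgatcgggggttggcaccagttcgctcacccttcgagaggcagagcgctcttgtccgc
The Hif1a window held 3 matches to ACGTG and none to GCGTG. Bnip3 held 2 and 3, Pdk1 none and 2, and Ddit4 1 and 1. The Pdk1 window is the upstream one of its pair, and the other held neither core. Vegfa, which also fell, is not shown. Of its 2 windows, 1 held 1 match to each core, and the other (chr17:46032328-46032627) held neither. No window was found for Bnip3l.

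On a per-length scale (mean normalised count over the 9 libraries per kilobase of the longest transcript), the members spanned 16.3 for Hif3a to 34533 for Gapdh. The 8 highest were all enzymes of glycolysis or lactate formation: Gapdh, Pkm (28733), Aldoa (24645), Eno1 (19379), Ldha (17970), Pgk1 (13481), Tpi1 (10576) and Pgam1 (7013). Among paralogous enzymes, Aldoa stood far above Aldoc (309 per kilobase). The phosphofructokinase genes ran from Pfkl (1380) through Pfkp (684) to Pfkm (104) per kilobase. The order of Pfkl and Pfkp depended on the transcript length used. In mean normalised counts not divided by length, Pfkp (5936) lay above Pfkl (5146), with Pfkm (300.6) still lowest. The glucose transporter Slc2a1 (2312) and the hexokinases Hk1 (1602) and Hk2 (1331) lay between. Outside glycolysis the most abundant member per kilobase was the prolyl hydroxylase Egln3 (3775), followed by the carbonic anhydrase Car9 (2030) and by Hif1a itself (1402). Of the alpha subunits, Epas1 (HIF-2 alpha) had 262 and Hif3a 16.3 per kilobase, and their common partner Arnt 393.

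Hif1a RNA (ENSMUSG00000021109, chr12:73901375-73947530) was lower after FICZ in both genotypes. The normalised counts were 7911 and 7600 in WT DMSO and 6012, 5957 and 6219 in WT FICZ. In the AHR KO libraries they were 7291 and 7050 under DMSO and 5789 and 5759 under FICZ. Every FICZ library lay below every DMSO library of either genotype, and the spread within groups was small. Hif1a fell by 21.8% in WT (log2 fold change -0.36 ± 0.05 SE, limma adjusted p = 0.000574). In AHR KO it fell by 19.5% (-0.31 ± 0.05, limma adjusted p = 0.0037). The difference between these changes was -0.04 on the log2 scale (95% interval -0.19 to 0.11, limma adjusted p = 0.961). With a trend on GC content and transcript length removed, these changes were -0.18 in WT (limma adjusted p = 0.0282) and -0.13 in AHR KO (adjusted p = 0.177), and the AHR KO call was also lost without AHR KO DMSO replicate 1. Hif1a was not called between genotypes under DMSO (-0.11, adjusted p = 0.204) or FICZ (-0.07, adjusted p = 0.319).

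The other alpha subunits were not called in any comparison. Epas1 had 1450 and 1366 normalised counts in WT DMSO, 1340, 1303 and 1464 in WT FICZ, 1543 and 1430 in AHR KO DMSO, and 1641 and 1468 in AHR KO FICZ. The WT groups overlapped, as did the AHR KO groups. Hif3a, whose product can act as an inhibitor of HIF, was the most variable of the alpha subunits: 150 and 124 in WT DMSO, 78.1, 116 and 128 in WT FICZ, 62.7 and 104 in AHR KO DMSO, and 122 and 54.5 in AHR KO FICZ. At this spread its 95% interval for the change after FICZ in WT ran from -1.14 to 0.39 on the log2 scale. Arnt, which is not a member but the partner of both HIF and AHR, was nearly level across the libraries. It had 1674 and 1720 in WT DMSO, 1605, 1769 and 1723 in WT FICZ, 1752 and 1695 in AHR KO DMSO, and 1722 and 1639 in AHR KO FICZ. Its change after FICZ was 0.00 in WT (95% interval -0.13 to 0.13) and -0.04 in AHR KO (-0.18 to 0.11).

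**Figure D1:**
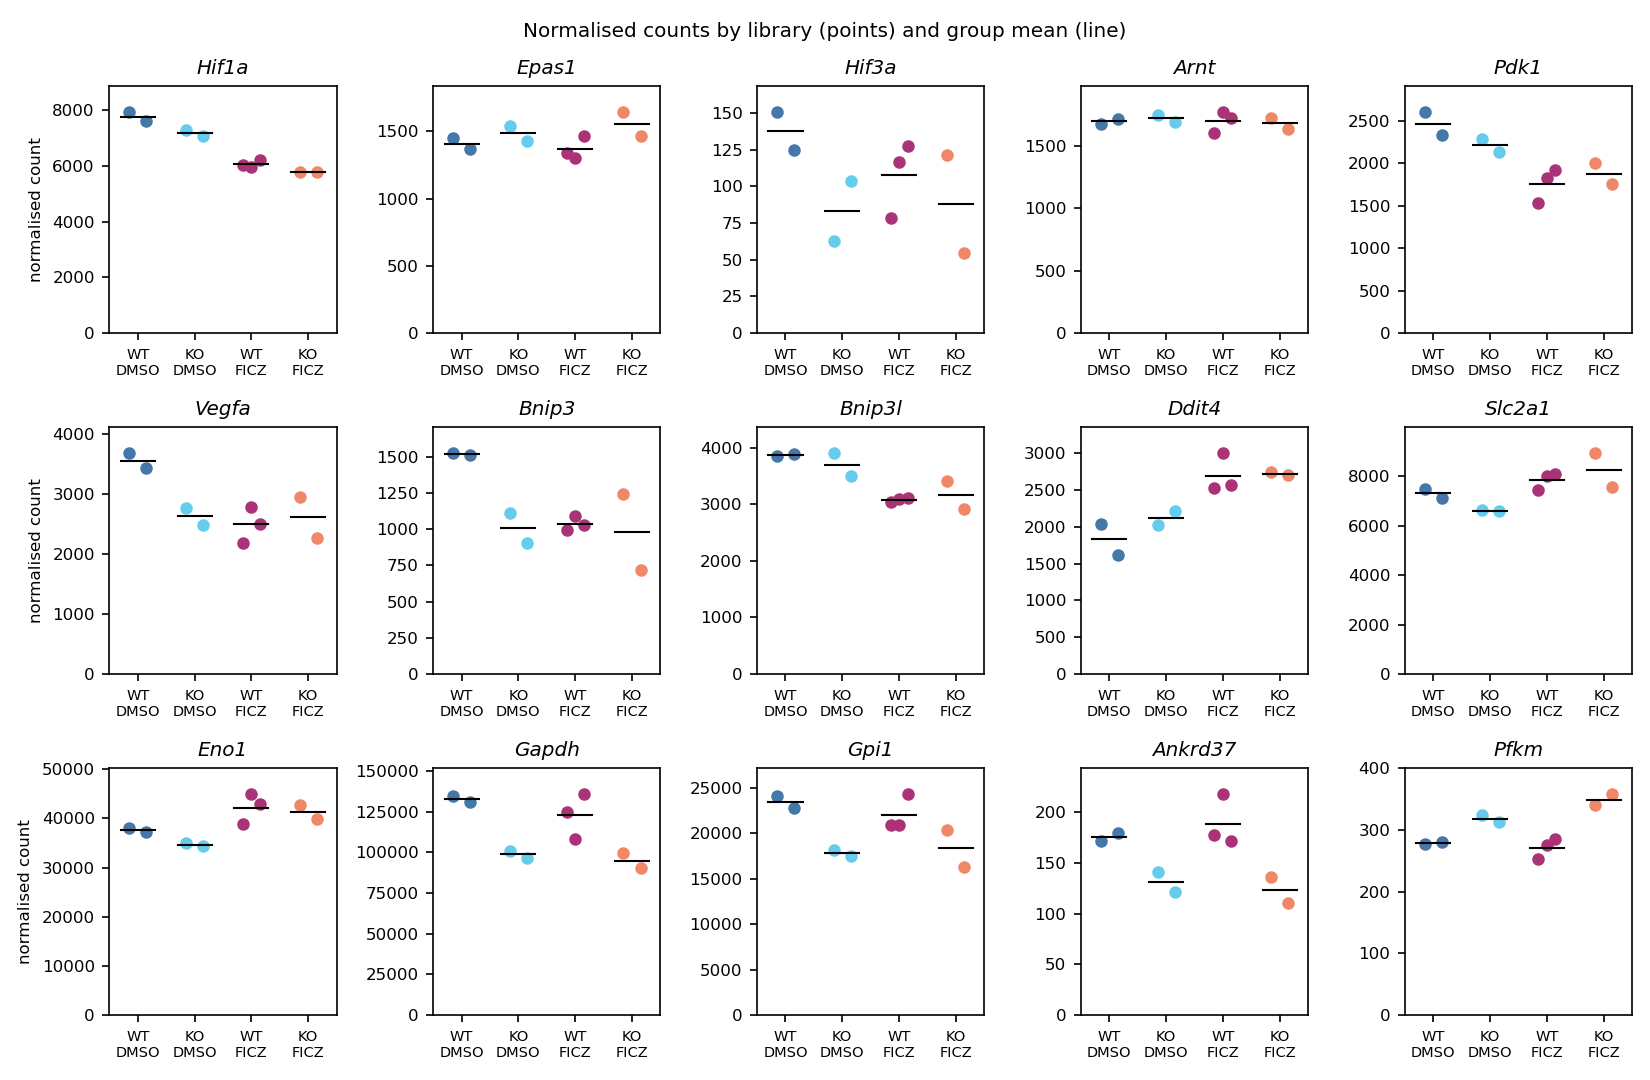
Normalised counts (y axis, linear, from 0) of 15 genes in the 4 groups: points are libraries and lines are group means of 2 or 3 libraries. Hif1a is lower in all 5 FICZ libraries, both WT DMSO libraries lie above the other 7 for Vegfa and Bnip3, and Gapdh and Gpi1 are lower in the AHR KO libraries.

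In WT organoids, FICZ lowered 5 members and raised 1, of 34. The genes that fell were Hif1a, the pyruvate dehydrogenase kinase Pdk1, the angiogenic factor Vegfa and the mitophagy receptors Bnip3 and Bnip3l, and the gene that rose was Ddit4, an inhibitor of mTORC1. By comparison, 30.8% of the 12741 genes tested were called in this comparison, 15.1% higher and 15.7% lower. The median log2 fold change of the members was -0.10, against -0.01 for all genes, and 25 of 34 were negative. Without WT FICZ replicate 1 this median was -0.04 with 19 negative, without WT DMSO replicate 2 it was -0.06, and with the trend on GC and length removed it was -0.16 with 29 negative. At an unadjusted p under 0.05 there were 10 members, 7 lower and 3 higher, a share of the 34 below the 42.1% of all genes. The balance of directions rested on WT FICZ replicate 1: without it 8 members were called, 4 lower and 4 higher, beside 24.3% of all genes, with Pfkl, Aldoa and Eno1 added to the genes that rose and Bnip3 lost. By role, 4 of the 14 HIF targets outside glycolysis, 1 of the 3 alpha subunits and 1 of the 17 glycolysis members were called. All WT FICZ libraries lay below both WT DMSO libraries in 12 of the 34 members and above them in 3. Such separation was common: of the 12741 genes tested, 3684 lay below and 3501 above.

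Pdk1 (ENSMUSG00000006494, chr2:71873224-71903858), which directs pyruvate away from the mitochondrion, had 2598 and 2336 normalised counts in WT DMSO and 1529, 1827 and 1925 in WT FICZ. All FICZ values lay under both DMSO values, and Pdk1 fell by 28.9% (log2 -0.49 ± 0.10 SE, limma adjusted p = 0.00514). Vegfa (ENSMUSG00000023951, chr17:46016993-46032369), the secreted factor that drives vessel growth, had 3680 and 3438 in WT DMSO and 2193, 2789 and 2508 in WT FICZ. It fell by 30.1% (-0.52 ± 0.12, adjusted p = 0.00915), again with no overlap. Without WT DMSO replicate 2, neither Pdk1 (adjusted p = 0.057) nor Vegfa (adjusted p = 0.0736) was called.

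The mitophagy receptors moved the same way. Bnip3l (ENSMUSG00000022051, chr14:66985239-67008877) had 3865 and 3899 in WT DMSO and 3037, 3089 and 3121 in WT FICZ, with narrow groups that did not overlap. It fell by 20.6% (log2 -0.33 ± 0.07 SE, limma adjusted p = 0.0059), but was not called with the GC and length trend removed (-0.15, adjusted p = 0.132). Bnip3 (ENSMUSG00000078566, chr7:138890836-138909519) had 1523 and 1511 in WT DMSO and 995, 1093 and 1029 in WT FICZ, and fell by 31.5% (-0.55 ± 0.18, adjusted p = 0.0431). The call for Bnip3 held in 10 of 22 alternative analyses and was lost when any one of 7 of the 9 libraries was left out, with the adjusted p between 0.0023 and 0.191 over all alternatives. The fit shares 1 estimate of the spread over the 4 groups, and the AHR KO FICZ libraries differed most (1244 and 721).

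Ddit4 (ENSMUSG00000020108, chr10:59949669-59951834), a target of HIF and of other stress pathways, ran in the opposite direction. It had 2041 and 1624 normalised counts in WT DMSO and 2522, 2998 and 2570 in WT FICZ, and 2031 and 2210 in AHR KO DMSO against 2743 and 2701 in AHR KO FICZ. All 5 FICZ libraries lay above all 4 DMSO libraries. Ddit4 rose by 47.6% in WT (log2 0.56 ± 0.10 SE, limma adjusted p = 0.00284) and by 28.5% in AHR KO (0.36 ± 0.11, adjusted p = 0.0453), and the difference between the changes was 0.20 (95% interval -0.13 to 0.53). With the GC and length trend removed neither was called (0.31 in WT, limma adjusted p = 0.0748, and 0.10 in AHR KO, adjusted p = 0.692), and the AHR KO call held in 14 of 22 alternatives.

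In AHR KO organoids, FICZ raised 3 members and lowered 1, where 19.7% of all genes were called, 10.2% higher and 9.48% lower. The gene that fell was Hif1a, and those that rose were Ddit4, the glucose transporter Slc2a1 and the enolase Eno1. The median log2 fold change of the members was 0.02, with 19 of 34 positive, and it turned with single libraries and settings. It was -0.14 with 27 negative without AHR KO FICZ replicate 1, 0.20 with 30 positive without AHR KO FICZ replicate 3, 0.06 and -0.03 without AHR KO DMSO replicates 1 and 3, 0.07 with quantile normalization and -0.04 with the GC and length trend removed. At an unadjusted p under 0.05 there were 8 members, of which 5 were higher, beside 34.3% of all genes. Both AHR KO FICZ libraries lay above both AHR KO DMSO libraries in 7 members and below them in 4. Of the 12741 genes tested, 3951 lay above and 4008 below. Slc2a1 (ENSMUSG00000028645, chr4:119108711-119137983) had 6613 and 6582 normalised counts in AHR KO DMSO and 8912 and 7570 in AHR KO FICZ. It rose by 24.5% (log2 0.32 ± 0.08 SE, limma adjusted p = 0.0194). In WT, Slc2a1 had 7491 and 7118 under DMSO and 7433, 8016 and 8099 under FICZ, groups that overlapped (0.10, adjusted p = 0.297). Eno1 (ENSMUSG00000063524, chr4:150236721-150248879) had 34916 and 34298 in AHR KO DMSO and 42622 and 39958 in AHR KO FICZ, and rose by 19.3% (0.25 ± 0.07, adjusted p = 0.037). In WT it had 37999 and 37138 under DMSO and 38843, 44866 and 42884 under FICZ, with no overlap (0.17, adjusted p = 0.0871). The AHR KO call for Eno1 held in 11 of 22 alternatives. It was lost, among others, with no filter, with quantile normalization and without either WT DMSO library. In AHR KO, 17.02% of all genes were called without WT FICZ replicate 3, against 19.7% with all libraries. Without AHR KO DMSO replicate 1 none of the 34 members was called in AHR KO (3.29% of all genes), without AHR KO DMSO replicate 3 only Hif1a was (9.86%), and without WT FICZ replicate 3 there were 2. Without AHR KO FICZ replicate 1 the direction turned, with 3 members called (12.2% of all genes), all lower: Hif1a, Bnip3 (-0.48, limma adjusted p = 0.0341) and Bnip3l (-0.34, adjusted p = 0.0248).

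With all libraries, the genes that fell in WT were not called in AHR KO, apart from Hif1a. Vegfa had 2770 and 2489 normalised counts in AHR KO DMSO and 2953 and 2275 in AHR KO FICZ, groups that overlapped (log2 -0.02). Bnip3 had 1109 and 907 in AHR KO DMSO, and its FICZ values lay on either side of these (-0.08). Pdk1 had 2288 and 2136 against 2003 and 1754 (-0.24, limma adjusted p = 0.154), and Bnip3l had 3902 and 3505 against 3409 and 2928 (-0.23, adjusted p = 0.0619). For both, the FICZ libraries lay below the DMSO libraries without reaching the threshold. A gene called in one genotype and not in the other is not thereby shown to differ, and the difference itself was tested as an interaction. No member was called (0 of 34 with limma, against 0.447% of all genes). At an unadjusted p under 0.05 there was 1, Vegfa, with a change that was 0.50 lower in WT (95% interval -0.89 to -0.11, unadjusted p = 0.0178, adjusted p = 0.487), beside 7.47% of all genes. The interaction was negative in 29 of the 34 members, with a median of -0.11 against -0.01 for all genes. This lean rested on AHR KO FICZ replicate 1, without which 19 members were negative and 15 positive, with a median of -0.0045. Without AHR KO FICZ replicate 3 the median was -0.24, and without WT FICZ replicate 1 it was -0.07.

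**Figure D2:**
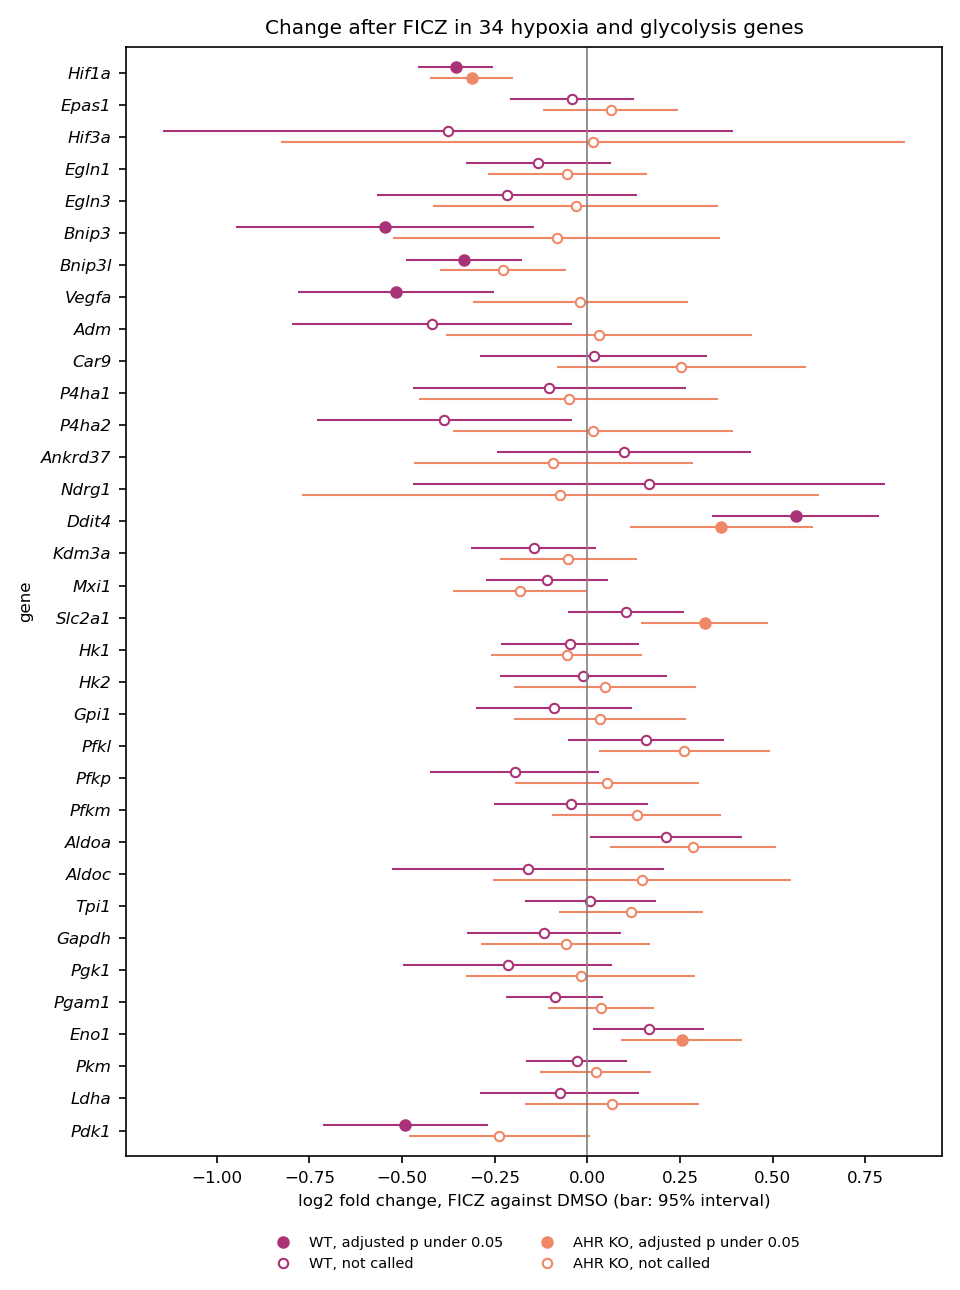
log2 fold change of FICZ against DMSO (x axis) for each of the 34 members (y axis, by role), WT in purple and AHR KO in orange, with 95% intervals from the limma fit. Filled points have an adjusted p under 0.05: 6 in WT and 4 in AHR KO, with Hif1a and Ddit4 filled in both.

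Base composition moved with the change after FICZ. Across the genes tested the log2 fold change correlated with the GC content of the transcript at r = 0.37 in WT and 0.41 in AHR KO, a description across genes, which are not independent replicates. Hif1a (41.3% GC), Bnip3 (41.6%) and Bnip3l (41.9%) have the lowest GC content of the members, and Ddit4 (57.9%) the highest. With a smooth trend on GC and length removed, Hif1a, Pdk1 (-0.41, limma adjusted p = 0.0167) and Vegfa (-0.55, adjusted p = 0.0126) were still called in WT. Ddit4, Bnip3l and Bnip3 (-0.35, limma adjusted p = 0.191) no longer were, and calls over all genes went from 30.8% to 18.2%. In AHR KO, no member was called after this step, where calls over all genes went from 19.7% to 5.47%. Slc2a1 stood at 0.18 (limma adjusted p = 0.254) and Eno1 at 0.0067 (adjusted p = 0.976). Of the 6 members called in WT, Vegfa and Pdk1, with 50.9% and 46.4% GC, moved least. Pkm (-0.28, limma adjusted p = 0.0186) and Egln1 (-0.32, adjusted p = 0.0486) were called only after it. With the replicate block fitted as well, 14.9% of all genes were called in WT. The WT call of Hif1a was then lost (limma adjusted p = 0.0646), and Ddit4 was called.

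Within glycolysis the changes after FICZ were small and mostly not called. Of the glucose uptake step, Hk1 and Hk2, which trap glucose as its phosphate, changed by -0.05 and -0.01 on the log2 scale in WT and by -0.06 and 0.05 in AHR KO. None of the 7 upper glycolysis genes was called after FICZ in either genotype, where 30.8% (WT) and 19.7% (AHR KO) of all genes were called. Their WT changes ran from -0.20 (Pfkp) to 0.21 (Aldoa). In AHR KO all 7 were positive, from 0.03 (Gpi1) to 0.29 (Aldoa, limma adjusted p = 0.072), but without AHR KO FICZ replicate 1 there were 3 negative (Gpi1, Pfkp and Aldoc), without AHR KO DMSO replicate 3 there was 1, and with the GC and length trend removed there were 2. Aldoa, the main aldolase, averaged 35392 ± 319 in WT DMSO (SD, n = 2), 41102 ± 3801 in WT FICZ (n = 3), 33592 ± 395 in AHR KO DMSO (n = 2) and 41149 ± 5521 in AHR KO FICZ (n = 2). Its WT and AHR KO FICZ libraries all lay above the DMSO libraries of their genotype. Of lower glycolysis, Gapdh, Pgk1, Pgam1 and Pkm were not called after FICZ, with WT changes of -0.12, -0.21, -0.09 and -0.03. Ldha, which turns pyruvate into lactate, changed by -0.07 in WT and 0.07 in AHR KO.

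Of the remaining HIF targets, none was called by limma after FICZ in either genotype in the values as deposited with all 9 libraries in one fit. The shares of all genes called were 30.8% in WT and 19.7% in AHR KO. Alternatives called Adm and Egln1 in WT and Car9 in AHR KO. The secreted peptide Adm averaged 590 ± 53.8 in WT DMSO and 440 ± 19.6 in WT FICZ (SD, n = 2 and 3), with no overlap between the groups (log2 -0.42, limma adjusted p = 0.0862), and it was called in a fit to the WT libraries alone (adjusted p = 0.0165) and without either AHR KO FICZ library. The prolyl hydroxylases that limit HIF, Egln1 and Egln3, were both lower in all WT FICZ libraries than in the WT DMSO libraries (-0.13 and -0.22). The same separation was seen in 3684 of the 12741 genes tested. Only Egln1 was called under an alternative, with the GC and length trend removed. Car9, a cell-surface carbonic anhydrase widely used as a hypoxia marker, changed by 0.02 in WT and 0.25 in AHR KO, where it was called without AHR KO FICZ replicate 3 (0.52, limma adjusted p = 0.0275). P4ha1 and P4ha2, which hydroxylate collagen, changed by -0.10 and -0.39 in WT, the latter at an adjusted p of 0.0851 with limma. Ankrd37 (0.10), Ndrg1 (0.17), the histone demethylase Kdm3a (-0.14) and the MYC antagonist Mxi1 (-0.11) were not called.

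Under DMSO, 2 members were lower in the libraries labelled AHR KO than in WT and none was higher, where 9.05% of all genes were called, 4.21% higher and 4.83% lower. Both were glycolytic enzymes. Gapdh (ENSMUSG00000057666, chr6:125161715-125166467), often used as a reference gene in RNA measurements, had 134455 and 131088 normalised counts in WT DMSO and 100923 and 96777 in AHR KO DMSO. It was 25.6% lower in AHR KO, a log2 change of -0.43 ± 0.10 SE (limma adjusted p = 0.0283). Gpi1 (ENSMUSG00000036427, chr7:34201330-34230336), the isomerase that follows hexokinase, had 24133 and 22787 in WT DMSO and 18124 and 17525 in AHR KO DMSO (-0.40 ± 0.10, adjusted p = 0.0407). In both genes the groups were well apart relative to their spread. The Gapdh call held in 17 of 22 alternatives and the Gpi1 call in 14. Gpi1 was not called with quantile normalization. With the replicate block Gpi1 was lost (limma adjusted p = 0.0704) and Ddit4 was called as higher in AHR KO (adjusted p = 0.0197).

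The other members leaned the same way under DMSO. In 25 of the 34, both AHR KO libraries lay below both WT libraries, against 31.4% of all genes, and in 1 (Pfkm) both lay above, against 26.6%. This held for 15 of the 17 glycolysis members and 10 of the 17 HIF pathway members. The median log2 difference was -0.15 for the members and -0.01 for all genes, and 28 of 34 were negative. With quantile normalization it was -0.09, with 24 negative and 9 positive. At an unadjusted p under 0.05 there were 10, all lower in AHR KO, beside 23.8% of all genes in both directions together. The largest differences among HIF targets that were not called were Bnip3 (-0.60, limma adjusted p = 0.0935), Vegfa (-0.44, adjusted p = 0.0663), Ankrd37 (-0.42, adjusted p = 0.161) and Adm (-0.40, adjusted p = 0.222). The WT DMSO libraries also enter the comparison of FICZ with DMSO in WT, and for Vegfa and Bnip3 they were the highest pair of the 9 libraries. A fit to the 4 DMSO libraries alone, in which 12.7% of all genes were called, called 9 members, all lower in AHR KO: Gapdh, Gpi1, Hk2, Tpi1, Ldha, Bnip3, Egln3, Car9 and Vegfa. In the fit to all groups, leaving out any one of the 4 DMSO libraries left none called, with 3.05% to 4.59% of all genes, and leaving out either AHR KO FICZ library gave 6, with 9.72% and 9.74%.

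Under FICZ, the libraries labelled AHR KO differed from WT in 3 members, 2 lower and 1 higher, where 20.0% of all genes were called, 10.5% lower and 9.48% higher. Gapdh had 125167, 108138 and 135666 normalised counts in WT FICZ and 99450 and 90549 in AHR KO FICZ. It was again lower, by a log2 change of -0.37 ± 0.09 SE (limma adjusted p = 0.0198). Ankrd37 (ENSMUSG00000050914, chr8:45996902-46005707), a HIF target with ankyrin repeats, had 177, 217 and 172 in WT FICZ and 136 and 110 in AHR KO FICZ, with 171 and 179 in WT DMSO and 141 and 121 in AHR KO DMSO. All AHR KO libraries lay below all WT libraries, and the change under FICZ was -0.61 ± 0.15 (adjusted p = 0.0191). Pfkm (ENSMUSG00000033065, chr15:98092589-98132451), the muscle-type phosphofructokinase and the least abundant of its family here, went the other way. It had 253, 276 and 284 in WT FICZ and 341 and 357 in AHR KO FICZ, with 277 and 281 in WT DMSO and 324 and 313 in AHR KO DMSO. All 4 AHR KO libraries lay above all 5 WT libraries, and Pfkm was 28.8% higher under FICZ (0.37 ± 0.09, adjusted p = 0.0205). Gpi1 had 20970, 20969 and 24293 in WT FICZ and 20397 and 16330 in AHR KO FICZ (-0.27, adjusted p = 0.0711).

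Under FICZ the lean of the members turned with single AHR KO libraries. Their median log2 difference was -0.04 against -0.0040 for all genes, with 20 of 34 negative. Without AHR KO FICZ replicate 1 it was -0.14 with 29 negative, and without AHR KO FICZ replicate 3 it was 0.15 with 28 positive. Leaving out a WT FICZ library gave -0.08 (replicate 1), -0.0015 (replicate 2) and -0.02 (replicate 3), and quantile normalization 0.0039. With all libraries, both AHR KO libraries lay below all WT libraries in 5 (24.4% of all genes) and above in 3 (22.9%). At an unadjusted p under 0.05 there were 7 members, 4 lower and 3 higher, beside 33.6% of all genes. This count rested on single libraries: without AHR KO FICZ replicate 3 none was called (10.4% of all genes), without WT FICZ replicate 1 only Ankrd37 was (14.8%), and without AHR KO FICZ replicate 1 there were 7 (15.2%), all lower in AHR KO. The 7 were Hk2, Gpi1, Gapdh, Bnip3, Ankrd37, Car9 and Ndrg1.

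**Figure D3:**
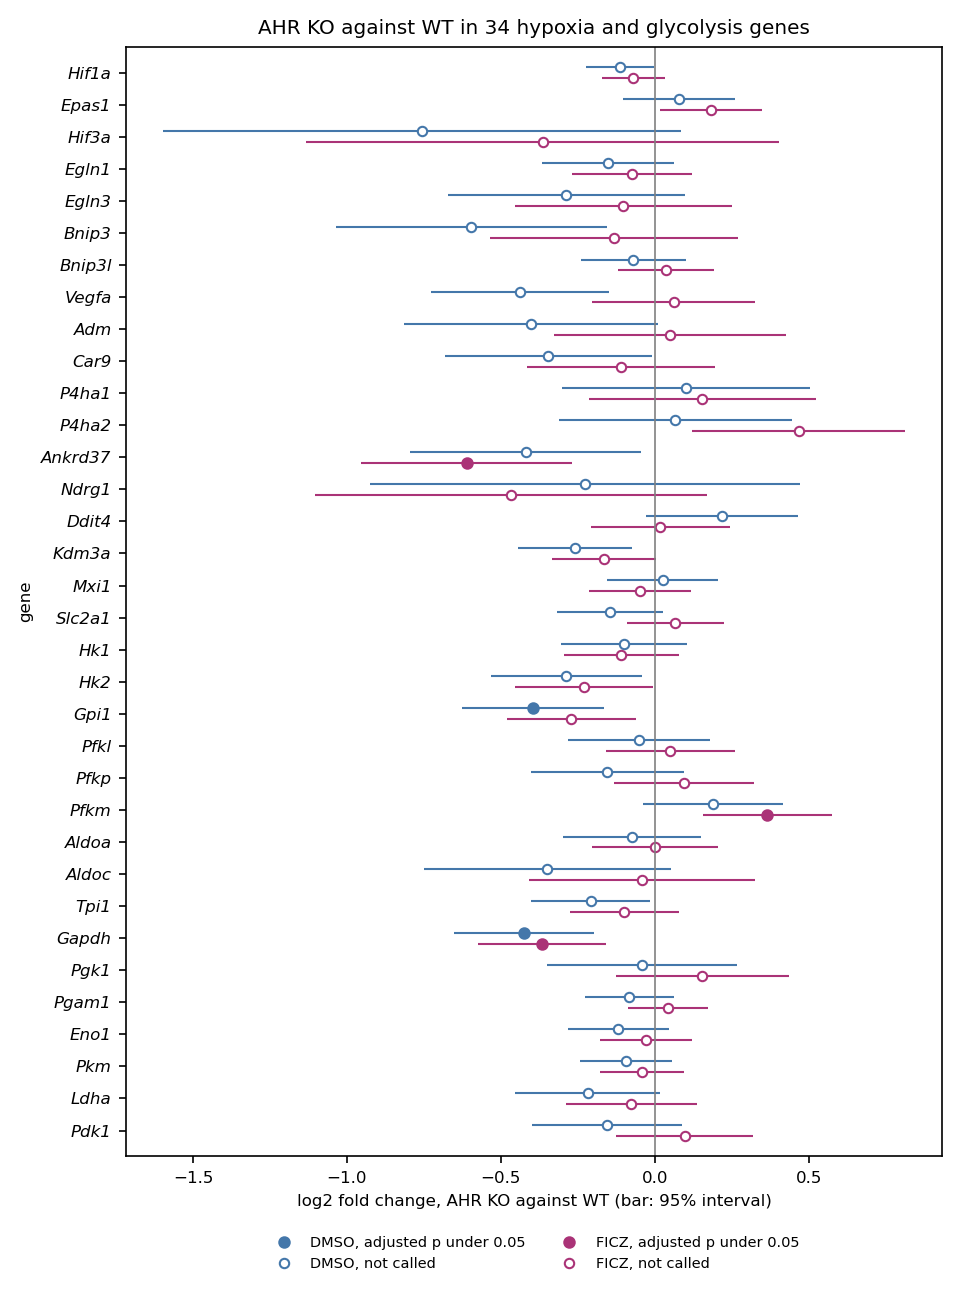
log2 fold change of AHR KO against WT (x axis) for each of the 34 members (y axis, by role), under DMSO in blue and under FICZ in purple, with 95% intervals from the limma fit. Filled points have an adjusted p under 0.05: Gapdh and Gpi1 under DMSO, and Gapdh, Ankrd37 and Pfkm under FICZ. Most points under DMSO lie left of 0.

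The members also moved together between libraries that carry the same label. In AHR KO FICZ, replicate 1 exceeded replicate 3 in 33 of the 34 members (all but Pfkm), by a median of 0.27 on the log2 scale, while 48.6% of all genes were higher in replicate 1. The 14 HIF targets outside glycolysis were all higher in replicate 1, by a median of 0.37. Ndrg1, a stress-responsive gene and HIF target, was 2.35-fold higher in replicate 1 (2347 against 1000 normalised counts), a difference that 0.69% of all genes matched or passed. Bnip3 was 1.72-fold higher (1244 against 721) and Adm 1.62-fold (580 against 357). Egln3 had 11258 against 7520, Car9 4899 against 3367 and Aldoc 1012 against 692. Hif1a (5789 against 5759) and Ddit4 (2743 against 2701) differed little between the same libraries.

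In WT FICZ, replicate 1 was the low library. It lay below replicate 2 in 30 of 34 members (median 0.24) and below replicate 3 in 32 (median 0.18), whereas replicates 2 and 3 divided the members 16 to 18. P4ha1 had 982 in replicate 1 against 1482 and 1258, Pgk1 19040 against 26464 and 22605, and Egln3 8306 against 10675 and 10870. In AHR KO DMSO, replicate 1 was higher in 31 of 34 (median 0.08), and in WT DMSO replicate 2 was higher in 25 (median 0.05). The summed normalised counts of the 14 HIF targets outside glycolysis ranged from 27099 in AHR KO FICZ replicate 3 and 29536 in WT FICZ replicate 1 to 37072 in AHR KO FICZ replicate 1 and 37973 in WT DMSO replicate 2. The AHR KO FICZ libraries alone spanned most of that range. The labels name no batch or culture plate for these libraries, and what moved the members within a group was not tested.

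**Figure D4:**
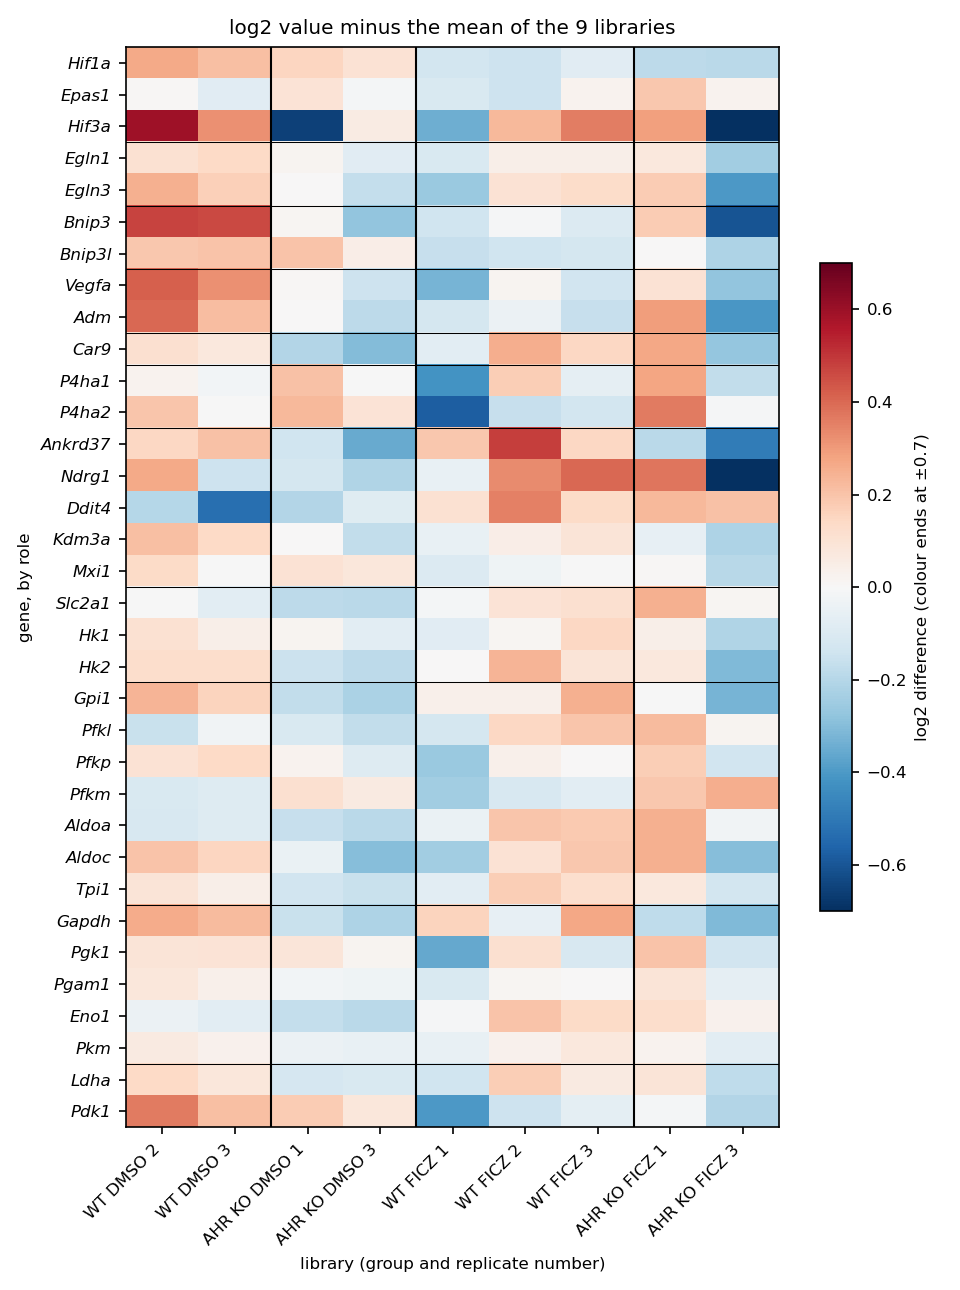
log2 value of each of the 34 members (rows, by role) in each of the 9 libraries (columns), minus the gene's mean over the 9 libraries; red is higher and blue lower, and colours end at a difference of 0.7. AHR KO FICZ replicate 3 and WT FICZ replicate 1 are blue in most rows beside redder libraries of their own group.

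Most members also had a wide spread within groups for genes of their level. The part of the shared movement in this spread was not tested. The within-group SD of the log2 values had a median of 0.132 over the members, against 0.110 for all genes tested and 0.0916 for genes with a mean of 100 or more. Among genes of like level, 30 of the 34 lay above the median SD. Ndrg1 (SD 0.439), Bnip3 (0.268), P4ha1 (0.245), Aldoc (0.240), Egln3 (0.237), Car9 (0.204), Pgk1 (0.185) and Vegfa (0.172) lay at percentiles from 96.6 to 99.7 among genes of like level. The exceptions were Pfkm (0.0623), Hif1a (0.0316), Pkm (0.0512) and Ankrd37 (0.166). Hif1a, Pfkm and Ankrd37 were among the members called above.

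**Figure D5:**
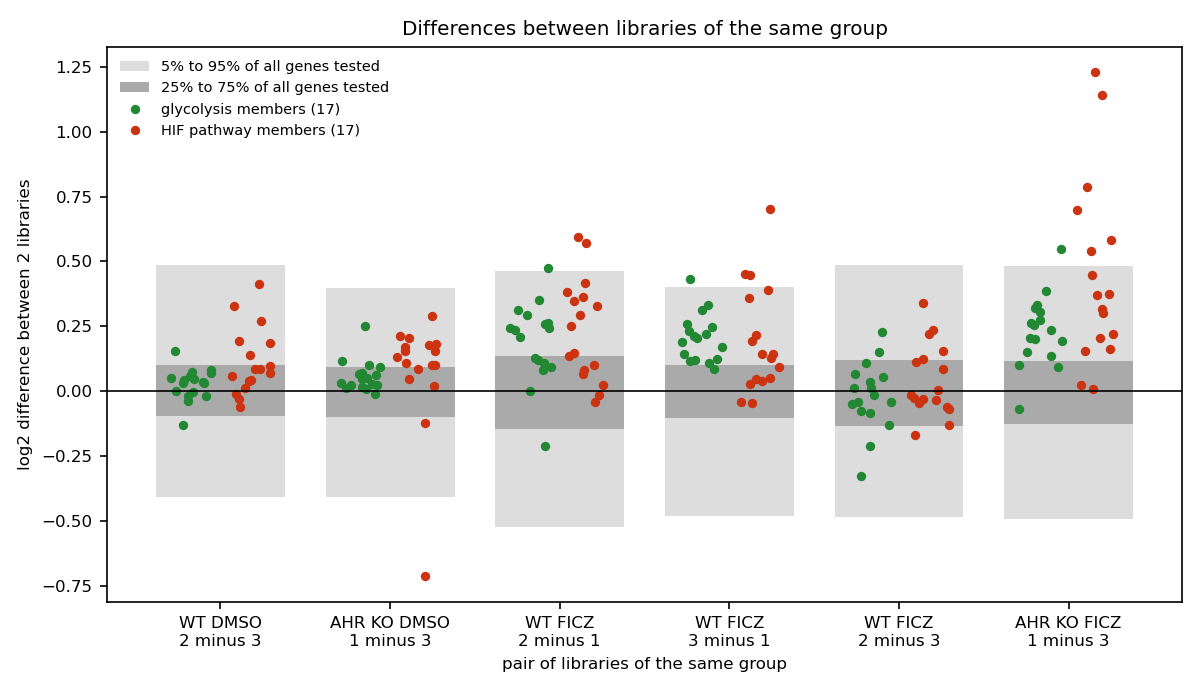
log2 difference between 2 libraries of the same group (y axis) for 6 pairs (x axis); green points are the 17 glycolysis members and red points the 17 HIF pathway members, and grey bands hold 50% and 90% of all genes tested. Members lie above 0 in 33 of 34 cases for AHR KO FICZ 1 minus 3, and in 30 and 32 for WT FICZ 2 and 3 minus 1.

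Genes of the same pathways outside the 34 were counted in lists chosen by name. Of 14 genes of the HIF machinery (partners, hydroxylases, ligase parts and coactivators), FICZ raised 5 and lowered 2 in WT and raised 3 and lowered 1 in AHR KO, where 30.8% and 19.7% of all genes were called. The largest called changes were in the hydroxylases Egln2, a log2 change of 0.46 in WT (limma adjusted p = 0.00429) and 0.42 in AHR KO (adjusted p = 0.0159), and Hif1an, the asparagine hydroxylase that limits HIF transactivation, 0.39 in WT (adjusted p = 0.00219). Between genotypes the list had 0 calls under DMSO with limma (1 at an unadjusted p under 0.05) and 1 under FICZ, the VHL ligase part Eloc (0.37, adjusted p = 0.0146). The shares of all genes called were 9.05% and 20.0%.

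Of 35 further HIF targets, 29 passed the filter. FICZ lowered 8 and raised 4 in WT, and raised 2, Plod1 and Kdm4b, and lowered none in AHR KO, where 30.8% and 19.7% of all genes were called. Of the genes that fell, Plod2, a collagen lysyl hydroxylase, fell by 0.69 on the log2 scale in WT (limma adjusted p = 0.031), and the carbonic anhydrase Car12 fell by 0.62 (limma adjusted p = 0.0017). Of those that rose, the histone demethylase Kdm4b changed by 0.40 in WT (limma adjusted p = 0.00318) and 0.44 in AHR KO (adjusted p = 0.0066), and the lysyl hydroxylase Plod1 by 0.37 (adjusted p = 0.0152) and 0.35 (adjusted p = 0.0408). Between genotypes this list had calls in both directions, 3 higher and 4 lower in AHR KO under DMSO, and 5 higher and 4 lower under FICZ, beside 9.05% and 20.0% of all genes. Under FICZ the largest were Plod2 (2.15-fold, limma adjusted p = 0.00441), the vasoconstrictor Edn1 (a log2 difference of 1.04, adjusted p = 6.0e-05) and Sap30 of a histone deacetylase complex (0.85, adjusted p = 3.7e-05), all higher in AHR KO.

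Of 33 other genes of glucose metabolism, 20 passed the filter. After FICZ 2 rose and 2 fell in WT, and 3 rose in AHR KO, shares of the list below the 30.8% and 19.7% of all genes called. The glucose-6-phosphatase G6pc3 was 0.47 higher on the log2 scale in WT (limma adjusted p = 0.00408) and 0.55 higher in AHR KO (adjusted p = 0.00643). Between genotypes, 4 were lower and 1 higher in AHR KO under DMSO, and 4 lower and 2 higher under FICZ, beside 9.05% and 20.0% of all genes. Pdk2, a second pyruvate dehydrogenase kinase (-0.68, adjusted p = 0.0191 with limma under DMSO), and the fructose bisphosphatase Fbp2 (-0.40, adjusted p = 0.00158) were lower, as was the pyruvate kinase Pklr (-0.45, adjusted p = 0.045). The 1 higher gene was the lactate transporter Slc16a1 (0.29, limma adjusted p = 0.0238). None of these 3 lists had an interaction call with limma. At an unadjusted p under 0.05 the interaction counts were 0, 5 and 0, of 14, 29 and 20 genes, beside 7.47% of all genes.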

How the data were processed

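Libraries were stranded, rRNA-depleted total RNA. The deposited values are a signal, normalised estimated counts that are not whole numbers. The submitters' processing notes name STAR 2.5.2a, RSEM 1.2.31, DESeq2 1.16.1 and GRCm38, and the study's methods name another counting route, so which steps the authors used for this table is not stated. Identifiers were matched to GENCODE M21 (48435 of 48795). No count model was used. Values were tested as log2(value + 1) with limma 3.58.1 (R 4.3.3; 4 groups in one fit, trended eBayes, two-sided) on 12741 genes with a mean of 10 or more. P-values were Benjamini-Hochberg adjusted over all genes and called under 0.05; fold changes are on the log2(value + 1) scale. The same steps were tested on simulated data, drawn for each gene independently, with changes put into WT FICZ only. These data held no trend on GC and no movement shared between genes, so the test does not cover either. Near-identical pseudogenes (blastn 2.17.0, 90% identity) held at most 0.207% of a member's value (Gapdh).

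The members and lists were chosen with earlier results of these data known. The value in every library is given for the alpha subunits and Arnt, and for up to 6 called members per comparison with the largest fold change and groups that do not overlap; other lists name up to 3 called genes by size, of those that can be reported here. The members shown between libraries of one group, Plod1, Kdm4b and Slc16a1 were picked after their values were seen. The study states 3 biological replicates per group. The replicate number of each DMSO library recurs in a FICZ library of its genotype. The labels do not say whether a shared number means a shared animal, so p-values measure the spread between these samples. Further replicates were not analysed here. Alternatives covered pseudocount (0.1, 10), filter (none, 100), scaling, block, GC and length, copies, and each library left out.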

Additional observations from a re-analysis of the deposited data

How the results depend on the processing

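With 2 or 3 libraries per group, single libraries limited most counts of called members. Leaving out each library in turn gave 3 to 8 called members for FICZ in WT, 0 to 6 for FICZ in AHR KO, 0 for the interaction, 0 to 6 for AHR KO against WT under DMSO and 0 to 7 under FICZ. The share of all genes called moved too, over 15.6% to 32.5%, 3.29% to 23.2%, 0.180% to 0.612%, 3.05% to 11.6% and 10.4% to 24.3% in the same order. For FICZ in WT the 3 came without WT DMSO replicate 2 (15.6% of all genes). The 13 other settings gave 4 to 7, beside 14.1% (no filter) to 38.2% (mean of 100 or more) of all genes. For FICZ in AHR KO, no filter on low values gave 2 (7.70% of all genes). With the trend on GC and length taken out, 0 members were called by limma, with or without the replicate block. The shares of all genes called were 3.94% and 5.47% with and without the block. As deposited, 8 members had an unadjusted p under 0.05 with limma. Under DMSO, AHR KO against WT gave 0 with no filter (3.61% of all genes), 1 with quantile normalization (8.35%) and 9 with only the groups compared (12.7%). Under FICZ it gave 1 with only the groups compared (14.8% of all genes) and 1 with the GC and length trend removed together with the replicate block (19.8%). The causes of these shifts were not tested. The interaction has no value for only the groups compared. It gave 0 under the other 12 settings, beside 0.190% (no filter) to 0.547% (mean of 100 or more) of all genes. Same-numbered libraries of a genotype deviated together only weakly (r = 0.0346 to 0.0498), so the numbers were not taken as pairs. Among the members, AHR KO replicate 1 exceeded replicate 3 in 31 of 34 under DMSO and 33 under FICZ. WT replicate 2 exceeded replicate 3 in 25 under DMSO and 16 under FICZ. The replicate block gave 7, 4, 0, 2 and 3 called members in the 5 comparisons. The shares of all genes were 26.8%, 17.6%, 0.306%, 8.26% and 19.3% in the same order. Under DMSO the block changed which members were called: Gpi1 was lost (limma adjusted p = 0.0704) and Ddit4 was called as higher in AHR KO (0.37, adjusted p = 0.0197). It also called Adm as lower after FICZ in WT (limma adjusted p = 0.0343). Together with removal of the trend on GC and length, the replicate block lost the call of Hif1a after FICZ in WT (limma adjusted p = 0.0646) and kept that of Ddit4 (0.36, adjusted p = 0.00516). Over the 15 calls of single members, no alternative changed a direction, 261 values stayed called and 69 did not.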
